A study of Mus musculus with 28 samples.

Results

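The immediate early genes *Fos*, *Fosb*, *Junb*, *Egr1*, *Egr2*, *Egr4*, *Arc*, *Npas4*, *Nr4a1* and *Dusp1* were followed through the mouse brain RNA-seq libraries of a study of humanised NOVA1, an RNA-binding protein of neurons. These 10 genes, chosen by their symbols, are 10 of the 23038 genes in the deposited tables. Homozygous *Nova1* hu/hu mice carry a CRISPR/Cas9 knock-in that replaces an isoleucine of NOVA1 with the valine of modern humans, together with silent changes for genotyping, in every cell, and were backcrossed to C57BL/6J. They were compared with *Nova1* wt/wt mice of the same background (BL6 in the labels). Dissected midbrain at E18.5 gave 6 hu/hu and 6 wt/wt libraries, midbrain at P21 gave 4 and 4, and cortex at P21 gave 4 and 4, which makes 28 libraries. No seizure, drug, light or behavioural stimulus is named in the labels, so the levels below are those of dissected tissue without a stated stimulus. Replicate numbers run from 1 to 6 or from 1 to 4 in each genotype. What a number stands for is not stated.

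Immediate early genes are switched on within minutes of synaptic activity or growth factor signalling, without new protein synthesis, by transcription factors such as SRF and CREB that are already bound to DNA and are activated by calcium and MAP kinase pathways. Most encode transcription factors that act on later genes, while *Arc* acts at the synapse on AMPA receptor trafficking and *Dusp1* encodes a phosphatase that turns MAP kinases off. Their transcripts are short-lived, so in whole tissue they follow the recent state of the cells, and in a bulk library fewer responding cells and less RNA per cell cannot be told apart.

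The stretch just before transcription begins was searched for the motifs of these factors. RefSeq promoters of GRCm38.p6, from 250 bases before to 50 after the start, were matched for 8 of the 10 genes, all but *Arc* and *Egr1*, with 12 promoters in all. The short CREB motif TGACG was found, on either strand, in at least 1 promoter of 8 of the 8 genes, and of 23.0% of all 27025 genes with a promoter of the same length. By single promoters it was in 10 of the 12 and in 20.8% of all 32851. The windows of 30 bases below are shown because these motifs are the ones the background names, and capitals mark the motif. A match is a stretch of letters and was not tested for binding.
*Fos*, chr12:85473811-85473840, plus strand, short CREB motif 66 to 62 bases before the start: cagttccgcccagTGACGtaggaagtccat
*Fosb*, chr7:19310089-19310118, minus strand, short CREB motif 60 to 56 bases before: atggagttgcgggTGACGcaagcgcggggg
*Junb*, chr8:84978838-84978867, minus strand, short CREB motif 106 to 102 bases before: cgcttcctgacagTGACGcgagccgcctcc
*Egr2*, chr10:67537801-67537830, plus strand, short CREB motif on the other strand 55 to 51 bases before: atatgggcagcgaCGTCAcgggtattgaag
*Egr4*, chr6:85513682-85513711, minus strand, short CREB motif on the other strand 109 to 105 bases before: gtttggtcatttaCGTCAcggcgccagggc
*Npas4*, chr19:4990134-4990163, minus strand, short CREB motif on the other strand 179 to 175 bases before: ctctcccgttcgaCGTCAcgggatgacgtc
*Nr4a1*, chr15:101266764-101266793, plus strand, short CREB motif on the other strand 69 to 65 bases before: gccgggccgtgtgCGTCAgtggcgcccccg
*Dusp1*, chr17:26508597-26508626, minus strand, full site 143 to 136 bases before: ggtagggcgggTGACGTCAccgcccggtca

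The full CREB site TGACGTCA, which contains the short CREB motif on both strands, was found in 1 of the 8 (*Dusp1*) and in 2.03% of all genes with a promoter. The CArG box bound by SRF was found in *Egr2* alone, against 1.81% of all genes, and the EGR site GCGNGGGCG in *Fosb* and *Nr4a1*, against 6.27%. The AP-1 site TGANTCA, bound by FOS and JUN dimers, was in the promoters of 0 of the 8 genes and of 8.97% of all genes. A window with a CArG box or EGR site follows for each of these genes, again with the motif in capitals. Another promoter of *Egr2* holds a different CArG box, 72 to 63 bases before its own start, which is not shown.
*Egr2*, chr10:67537787-67537816, plus strand, CArG box 72 to 63 bases before the start: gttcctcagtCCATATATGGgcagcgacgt
*Fosb*, chr7:19310077-19310106, minus strand, EGR site 50 to 42 bases before: gtgacgcaagcGCGGGGGCGggtcccggag
*Nr4a1*, chr15:101266775-101266804, plus strand, EGR site on the other strand 60 to 52 bases before: tgcgtcagtggCGCCCCCGCccctctccat

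The libraries held 18550922 to 45134998 counts. The 10 genes together took 591 to 1264 of these in an E18.5 library and 2602 to 6023 in a P21 midbrain library, so their levels are far less precise before birth. Known markers went with the labelled regions. The summed level of 5 markers of cortical excitatory neurons was 1845 to 2047 TPM (the share of a library's transcripts after division by exon length) in P21 cortex and 133 to 159 TPM in P21 midbrain. The 6 markers of midbrain neurons summed to 161 to 198 TPM in P21 midbrain and 10.5 to 20.8 TPM in cortex. Neuropeptide genes of the hypothalamus were also detected in P21 midbrain and summed to 327 to 419 TPM there. Cortex libraries 1 and 2 were male and midbrain P21 libraries 1 and 2 were female by *Xist*, so the same number in the 2 regions does not mark the same animal.

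The FOS and JUN family forms the AP-1 transcription factor. In E18.5 midbrain, *Fos* ranged from 1.36 through a median of 2.41 to 5.02 TPM in hu/hu and from 1.81 through 2.23 to 4.72 TPM in wt/wt, with number 3 the highest of each genotype. In P21 midbrain, *Fos* was 32.4, 13.4, 15.8 and 34.3 TPM in hu/hu libraries 1 to 4 and 38.4, 12.6, 15.3 and 35.2 TPM in wt/wt libraries 1 to 4. In P21 cortex it was 15.97, 48.4, 32.8 and 14.3 TPM in hu/hu and 7.60, 48.2, 34.3 and 15.5 TPM in wt/wt. The genotypes overlapped throughout, while libraries 1 and 4 were high in midbrain and libraries 2 and 3 in cortex, in both genotypes.

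*Fosb* encodes a FOS relative whose truncated form outlasts the others, and it was near the detection limit before birth. At E18.5 it ranged from 0.0400 to 0.355 TPM, on 1 to 11 counts per library. P21 midbrain libraries held 0.935 to 2.63 TPM and cortex libraries 3.96 to 9.80 TPM, with no overlap between the 3 sets.

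*Junb* encodes a JUN protein that is the partner of FOS in many AP-1 dimers. It ranged from 0.704 to 2.81 TPM at E18.5, from 4.73 to 10.5 TPM in P21 midbrain and from 15.5 to 63.0 TPM in P21 cortex, again with no overlap. In cortex, hu/hu libraries 1 to 4 held 17.9, 63.0, 32.3 and 31.5 TPM and wt/wt libraries 15.5, 60.9, 35.7 and 22.7 TPM. Library 2 was the highest and library 1 the lowest of each genotype. Exons of *Junb* share 173 bases with the neighbouring *Prdx2* on the other strand, and the counting is not stated to use strand, so reads in that overlap cannot be assigned to either gene.

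*Egr1*, the zinc finger factor also known as Zif268, had the highest mean level of the 10 genes at P21, above *Arc* in 6 of 8 libraries of each region. It ranged from 1.75 to 8.06 TPM at E18.5 and from 21.6 to 44.5 TPM in P21 midbrain. In cortex it was 145, 286, 245 and 158 TPM in hu/hu and 111, 286, 269 and 169 TPM in wt/wt. Every cortex library was above every P21 midbrain library, and every P21 midbrain library was above every E18.5 library.

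*Egr2* (Krox20) and *Egr4* encode relatives of EGR1 that bind the same GC-rich site. *Egr2* stayed low in midbrain at both ages, from 0.103 to 0.520 TPM at E18.5 and from 0.133 to 0.576 TPM at P21, where the ranges overlapped. In cortex *Egr2* was 2.44, 11.6, 6.90 and 3.01 TPM in hu/hu and 1.34, 12.8, 8.35 and 2.91 TPM in wt/wt, so every cortex library was above every midbrain library. *Egr4* had 3 or fewer counts in 11 of 12 E18.5 libraries and was at 0 in 4 wt/wt libraries, where 3 counts would be 0.174 to 0.228 TPM. It ranged from 0.620 to 1.64 TPM in P21 midbrain and from 10.6 to 29.6 TPM in cortex, without overlap.

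*Npas4* encodes a transcription factor that in neurons responds to calcium influx through depolarisation, and it ran against the others with age. At E18.5 it ranged from 6.54 through a median of 7.82 to 9.86 TPM in hu/hu and from 6.50 through 8.46 to 9.23 TPM in wt/wt. In P21 midbrain it was 4.74, 3.64, 3.86 and 3.28 TPM in hu/hu and 3.38, 3.51, 3.49 and 3.81 TPM in wt/wt, all below every E18.5 library. In cortex it was 7.13, 16.7, 15.6 and 14.4 TPM in hu/hu and 6.85, 15.0, 8.64 and 10.7 TPM in wt/wt, which overlapped the E18.5 range.

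*Nr4a1* (Nur77), an orphan nuclear receptor, ranged from 9.33 to 15.6 TPM at E18.5 and from 12.2 to 20.1 TPM in P21 midbrain, so the ages overlapped. In cortex it was 46.2, 167, 66.9 and 59.2 TPM in hu/hu and 47.1, 183, 106 and 71.2 TPM in wt/wt. All 8 cortex libraries were above all midbrain libraries, and library 2 was the highest of each genotype.

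*Arc*, the synaptic effector, ranged from 1.28 to 3.53 TPM at E18.5 and from 19.7 to 32.2 TPM in P21 midbrain. In cortex it was 34.6, 295, 76.8 and 53.1 TPM in hu/hu and 32.0, 290.4, 137 and 61.3 TPM in wt/wt. Library 2 of both genotypes held more than 8 times the level of library 1 (8.53 times in hu/hu and 9.06 times in wt/wt), and even the lowest cortex library was close to the highest P21 midbrain library, so these ranges overlapped slightly.

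*Dusp1*, the MAP kinase phosphatase, was the most even of the 10 genes before birth, from 11.2 to 16.1 TPM at E18.5. It ranged from 16.4 to 26.4 TPM in P21 midbrain and from 13.9 to 41.2 TPM in cortex, so the regions overlapped. Its exons share 11 bases with *Ergic1* on the other strand.

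**Figure D1:**
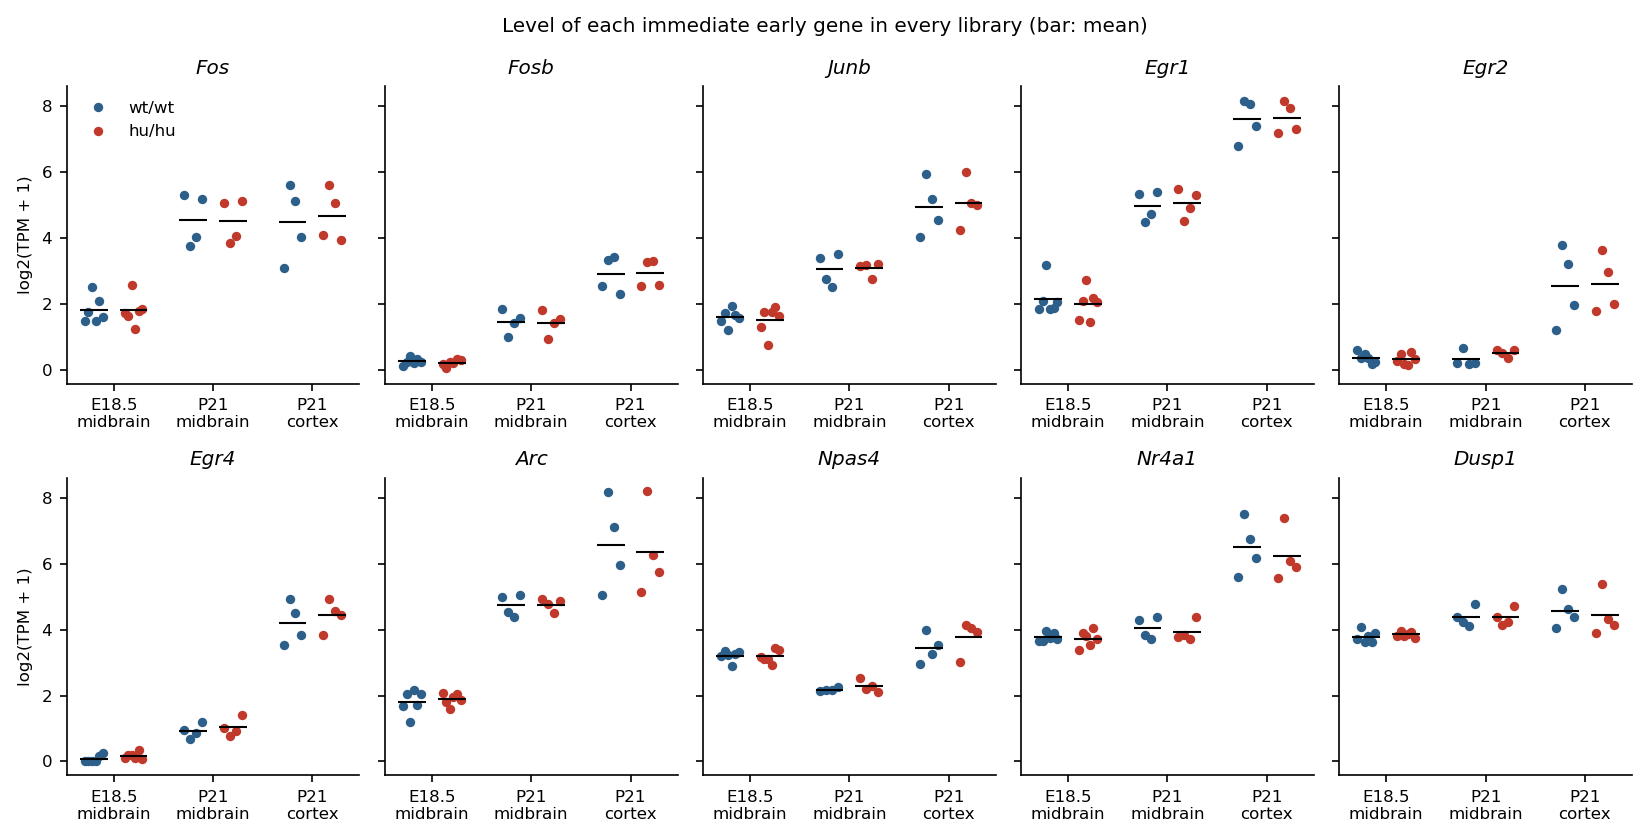
Each panel shows 1 gene, with log2(TPM + 1) on the y axis and the 3 age and region sets on the x axis; points are libraries (blue wt/wt, red hu/hu) and bars are group means. *Egr1* reaches 286 TPM in cortex and *Egr4* is at 0 in 4 E18.5 libraries, and red and blue points overlap in every set.

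The order of the levels changed with age and region. At E18.5 *Dusp1* (13.2 ± 1.40 TPM, SD, n = 12), *Nr4a1* (12.6 ± 1.75 TPM) and *Npas4* (8.25 ± 1.07 TPM) led. *Dusp1* exceeded *Nr4a1* in 8 of 12 libraries and the ranges overlapped, whereas *Nr4a1* exceeded *Npas4* within each of the 12 libraries. *Egr1*, *Arc*, *Fos* and *Junb* followed with means of 3.47 down to 2.02 TPM and overlapping ranges, and only the step from *Junb* to *Egr2* (0.282 ± 0.136 TPM) was free of overlap.

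In P21 midbrain *Egr1* (32.8 ± 9.12 TPM, SD, n = 8), *Arc* (26.3 ± 4.60 TPM), *Fos* (24.7 ± 11.3 TPM) and *Dusp1* (16.4 to 26.4 TPM) led. *Arc* exceeded *Fos* in 4 of 8 libraries, and *Fos* exceeded *Dusp1* in 4 of 8, so these neighbours did not differ beyond their spread. *Npas4* (3.71 ± 0.458 TPM), rank 3 of the 10 before birth, was now at rank 7 and clear of its lower neighbour *Fosb* (1.79 ± 0.614 TPM). *Egr2* (mean 0.347 TPM) was the lowest.

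In P21 cortex *Egr1* (208.5 ± 70.3 TPM, SD, n = 8), *Arc* (122.5 ± 110.0 TPM) and *Nr4a1* (93.3 ± 53.9 TPM) led. All neighbours in this order overlapped in their ranges. Within libraries the order was firmer, since *Nr4a1* exceeded *Junb* in 8 of 8 and *Egr4* exceeded *Npas4* in 8 of 8, but *Arc* exceeded *Nr4a1* in only 4 of 8.

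The comparison of regions asked which of the genes differed between cortex and midbrain at P21. Of the 10 genes, 8 were higher in cortex and 0 lower, where 75.6% of the 16345 genes tested were called in either direction, 37.7% as higher and 37.9% as lower in cortex. With edgeR's quasi-likelihood test and genotype in the model, calls needed both an unadjusted p under 0.05 and, after Benjamini-Hochberg adjustment over all genes, a value under 0.1. This model takes the 8 libraries of a region as independent. Same-numbered libraries of the 2 genotypes moved together, as described below, so its SEs, intervals and p-values can be too small. The 2 EGR relatives led: *Egr4* was 21.2-fold higher (log2 fold change 4.40, SE 0.23, adjusted p = 1.14e-14) and *Egr2* 18.2-fold (4.19, SE 0.46, adjusted p = 1.32e-08). *Egr1* was 6.73-fold higher (2.75, SE 0.19, adjusted p = 3.67e-12), *Nr4a1* 6.41-fold (2.68, SE 0.26, adjusted p = 1.45e-09), *Arc* 4.90-fold (2.29, SE 0.39, adjusted p = 1.08e-05) and *Junb* 4.84-fold (2.28, SE 0.25, adjusted p = 1.46e-08). The *Arc* value rested in part on the cortex libraries of number 2, without which it was 2.62-fold (adjusted p = 1.14e-05). *Fosb* (4.13-fold, adjusted p = 7.91e-09) and *Npas4* (3.35-fold, adjusted p = 3.88e-10) completed the set.

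*Fos* and *Dusp1* did not pass the test between regions. The *Fos* log2 fold change was 0.22 with a 95% interval of −0.42 to 0.87 (adjusted p = 0.528), and that of *Dusp1* was 0.30 with an interval of −0.08 to 0.68 (adjusted p = 0.144). An increase of 6-fold or more, as seen for *Egr1*, lies outside both intervals, which can be too narrow since the model leaves the replicate number out. Without cortex hu/hu library 1, *Dusp1* passed (adjusted p = 0.0595), whereas without number 2 of both genotypes the *Dusp1* estimate was −0.07 (adjusted p = 0.607) and the *Fos* estimate −0.21 (adjusted p = 0.556). The median over the 10 genes was 2.28 and that over all genes tested was 0.00 on the log2 scale.

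The regions also differed in their cells. The 5 cortical excitatory markers were all higher in cortex, while oligodendrocyte markers summed to 5235 to 5905 TPM in cortex and 18264 to 20583 TPM in P21 midbrain. Neuronal markers summed to 4156 to 4500 TPM in cortex and 3593 to 3961 TPM in midbrain. These sums hide single markers, since all 5 were called, 4 higher and 1 lower in cortex. *Rbfox3* had hu/hu and wt/wt means of 238 and 245 TPM in cortex and 87.8 and 88.9 TPM in midbrain. *Tubb3*, the lower one, had 559 and 599 TPM against 733 and 750 TPM. The part of these in the differences of the immediate early genes was not tested.

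The comparison of ages asked the same within midbrain. Its model also leaves the replicate number out, so its SEs, intervals and p-values can be too small. Of the 7 genes that passed the filter on low counts in the E18.5 libraries alone, 6 were higher at P21 than at E18.5 and 1 was lower, against 85.6% of 16330 genes called in either direction (42.4% higher and 43.3% lower). *Arc* rose most clearly, 11.4-fold (log2 fold change 3.51, SE 0.12, adjusted p = 2.43e-19). *Egr1* rose 10.8-fold (3.43, SE 0.19, adjusted p = 7.12e-15), *Fos* 10.5-fold (3.39, SE 0.24, adjusted p = 6.25e-13) and *Junb* 4.31-fold (2.11, SE 0.17, adjusted p = 1.84e-11). *Dusp1* rose 1.74-fold (adjusted p = 3.63e-09) and *Nr4a1* 1.39-fold (adjusted p = 0.000115). *Npas4* was the only one that fell, with a log2 fold change of −0.95 (SE 0.09, adjusted p = 1.79e-10).

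*Fosb*, *Egr2* and *Egr4* were too low at E18.5 to be tested there alone and entered the age comparison through their P21 libraries, so they are not counted above. The estimates were 3.38 for *Fosb* and 3.61 for *Egr4* on the log2 scale, both called. With the replicate number as a block, *Egr4* was at 4.23, but a number does not mark the same animal at both ages. *Egr2* was not called, with 0.51 and an interval of −0.15 to 1.16 (adjusted p = 0.141). The regional and the age comparison share the 8 P21 midbrain libraries and so are not independent. Set side by side, *Egr2* differed mainly between regions (4.19 against 0.51 between ages), *Fos* between ages (3.39 against 0.22 between regions), and *Npas4* was lower in P21 midbrain than in both other sets. Between ages, cell composition moved strongly too, since oligodendrocyte markers summed to 58.2 to 81.1 TPM at E18.5. The part of this in the age differences was not tested.

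**Figure D2:**
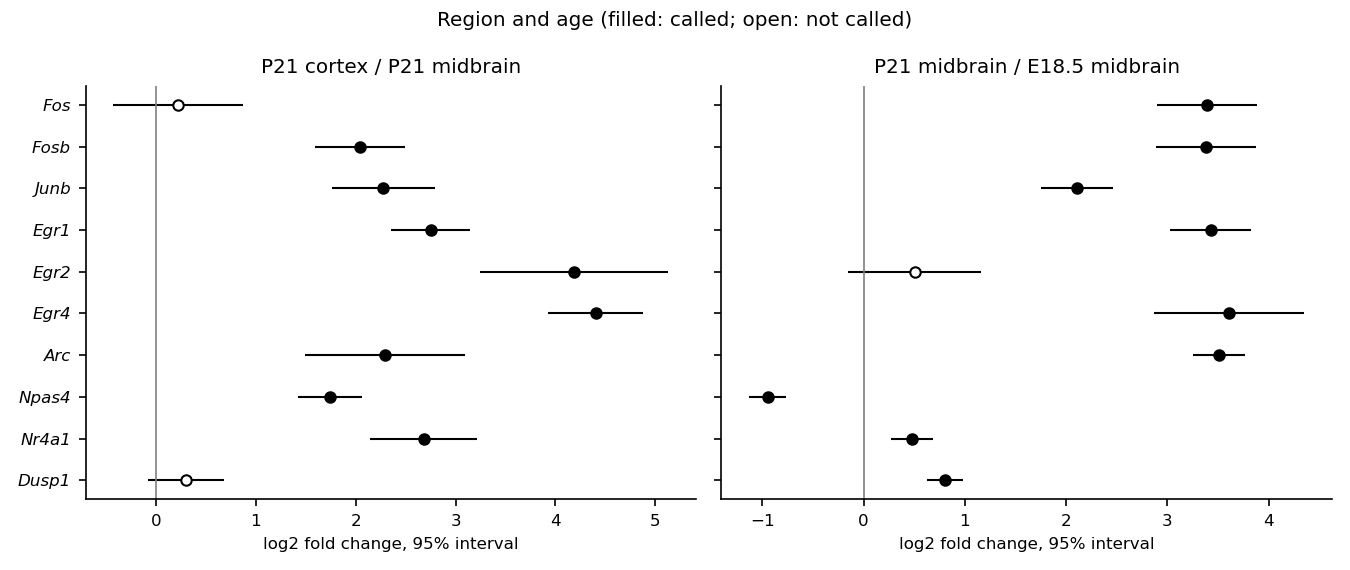
Log2 fold changes of the 10 genes with 95% intervals (x axis) between P21 cortex and P21 midbrain (left) and between P21 and E18.5 midbrain (right), filled where called. *Egr4* (4.40) and *Egr2* (4.19) lie farthest right in the left panel, and *Npas4* (−0.95) is the only one left of 0 in the right panel. The models leave the replicate number out, so the intervals can be too narrow.

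Other genes of the response were followed as lists chosen with earlier results of these data known. Their counts stand against 37.7% of all genes higher and 37.9% lower between regions, and 42.4% higher and 43.3% lower between ages, and several lie near these shares. Of 26 other immediate early genes, 17 were higher in cortex than in P21 midbrain and 3 lower, with a median of 0.41 on the log2 scale. *Egr3*, another EGR relative, was 22.9-fold higher in cortex (83.4 ± 14.7 against 3.84 ± 1.92 TPM, SD, n = 8 each), *Ier5* 4.40-fold and *Nr4a3* 4.31-fold, while *Ier3* was 1.27-fold lower. Between ages 14 of 25 rose in midbrain and 6 fell. *Csrnp1* rose 5.34-fold and *Per1*, a clock gene with CREB sites, 2.43-fold, while *Sik1*, a kinase that restrains CREB coactivators, fell 2.37-fold.

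Of 30 upstream factors and kinases, 22 were higher and 4 lower in cortex, led by *Mef2c* (14.2-fold) and the calcium-dependent kinases *Camk2a* (9.41-fold) and *Camk4* (4.37-fold). Between ages 13 rose and 10 fell, *Camk2a* 5.81-fold up and *Creb1* 1.82-fold down. Of 20 activity-regulated effector genes, 11 were higher and 6 lower in cortex (*Ptgs2* 13.2-fold higher, *Nefm* 2.79-fold lower), and 14 rose and 5 fell with age. Of 9 MAP kinase phosphatases other than *Dusp1*, 5 were higher and 2 lower in cortex, with *Dusp6* 2.42-fold and *Dusp5* 2.19-fold higher, and 4 rose and 3 fell with age. Of 10 heat shock genes, 0 were higher and 6 lower in cortex, and 8 rose and 0 fell with age.

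The levels also moved together from library to library. After each genotype's mean was removed, the SD of log2 CPM (counts scaled to a common library size) over cortex libraries had a median of 0.70 for the 10 genes and 0.11 for all 15767 genes tested. *Arc* (SD 1.36) ranked 11th, *Egr2* (1.26) 12th and *Fos* (1.03) 25th of these. In P21 midbrain the medians were 0.42 and 0.11, with *Fos* the most variable member (SD 0.75). At E18.5 they were 0.42 for the 7 genes that passed the filter on low counts and 0.15 for all genes. *Dusp1* (SD 0.15) was ordinary there.

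This variation followed the replicate number that hu/hu and wt/wt libraries share. Number held a median of 96.4% of a gene's variance for the 10 genes in cortex (62.0% for all genes), 91.6% in P21 midbrain (59.5%) and 80.5% for the 7 genes tested at E18.5 (73.0%). Number was tested as a term beside genotype with edgeR's quasi-likelihood test. In P21 cortex 10 of 10 genes differed between numbers, against 6.26% of 15767 genes. *Arc* had the smallest adjusted p (9.80e-14), followed by *Nr4a1* (5.68e-12), *Junb* (6.79e-10) and *Egr1* (1.22e-09), and *Npas4* had the largest (0.000448). Number 2 was above its genotype's mean for 10 of 10 genes in both genotypes, by an average of 0.90 in hu/hu and 0.94 in wt/wt on the log2 scale. Number 1 was above it for 0 of 10 in both, by an average of −0.71 and −0.95. Numbers 1 and 2 were both male by *Xist* and *Ddx3y*, so the highest and the lowest libraries were of the same sex. Without number 2, 10 of 10 genes still differed between numbers, an alternative chosen after seeing the data. The share of all genes called in that fit is not given here.

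In P21 midbrain 6 of 10 genes differed between numbers, against 2.77% of 15972 genes. They were *Fos* (adjusted p = 5.06e-08), *Egr1* (3.24e-06), *Dusp1* (0.00599), *Arc* (0.0150), *Nr4a1* (0.0222) and *Fosb* (0.0225). In each genotype number 1 was above the genotype's mean for 7 of the 10 genes and number 4 for 9, and numbers 2 and 3 for 0 to 2. Number 1 was female and number 4 male by *Xist*. *Fos* in numbers 1 and 4 was 32.4 to 38.4 TPM and in numbers 2 and 3 it was 12.6 to 15.8 TPM, in both genotypes. *Junb* (adjusted p = 0.143), *Egr4* (0.390), *Egr2* (0.684) and *Npas4* (0.923) did not pass. Without one library the call was lost for *Fosb* (hu/hu 2 or wt/wt 2), *Nr4a1* (hu/hu 4 or wt/wt 4) and *Dusp1* (wt/wt 4), with adjusted p up to 0.212, 0.306 and 0.150, while *Fos*, *Egr1* and *Arc* stayed past the threshold without any single library.

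At E18.5 3 of 7 genes differed between numbers, *Egr1* (adjusted p = 0.000593), *Fos* (0.00913) and *Junb* (0.0684), but 40.9% of all 15540 genes did too. Number 3 held 5.02 and 4.72 TPM of *Fos* and 5.58 and 8.06 TPM of *Egr1* in hu/hu and wt/wt, with the lowest *Junb* of each genotype (0.704 and 1.33 TPM). Without number 3, chosen after seeing the data, 0 of 7 genes were called by edgeR, with an adjusted p of 0.454 for *Fos*, 0.330 for *Egr1* and 0.583 for *Junb*. That fit holds fewer libraries and its share of all genes called is not given here. The loss of these calls therefore cannot be read as particular to the immediate early genes. The *Junb* call was also lost without hu/hu library 1, 2, 3 or 4 or wt/wt library 4 (adjusted p 0.101 to 0.365), while *Fos* and *Egr1* stayed past the threshold without any single library.

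**Figure D3:**
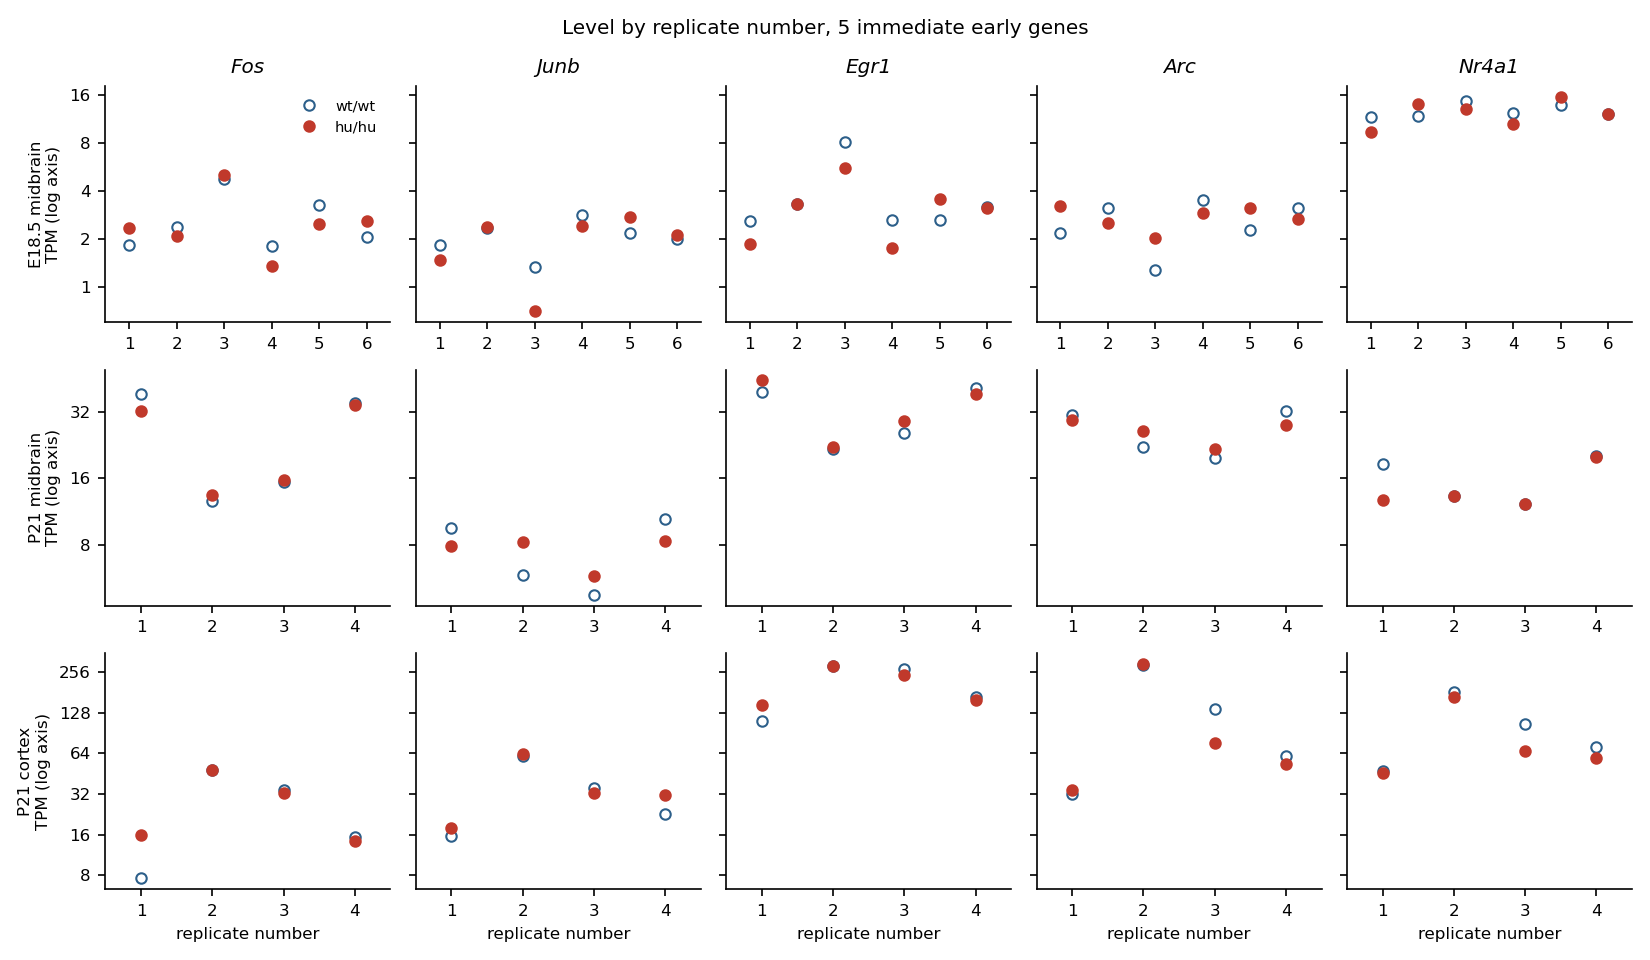
TPM on a log axis (y) against replicate number (x) for *Fos*, *Junb*, *Egr1*, *Arc* and *Nr4a1*, with a row for each age and region; open blue points are wt/wt and filled red points hu/hu. Same-numbered points lie close together, with *Arc* at 295 and 290.4 TPM in the cortex libraries of number 2 and *Fos* at 5.02 and 4.72 TPM in the E18.5 libraries of number 3.

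Other measures moved with the same libraries. The measures that moved most are given here. Cortical excitatory neurons and the heat shock genes are also given for cortex, although other lists left out here moved more there. In cortex, the correlation of the libraries' mean deviation over the 10 genes with the summed markers of midbrain neurons was 0.91 (n = 8 libraries, on the log2 scale with genotype means removed), where those markers were 10.5 to 20.8 TPM. Only 3 of the 6 markers passed the filter on low counts in cortex, and of these only *Th* differed between numbers, so this low sum may rest on few genes. The correlation was 0.68 for blood (495 to 854 TPM for the 3 of 5 markers in the tables), −0.63 for hypothalamic neurons (1.49 to 32.9 TPM for 4 markers), 0.59 for endothelium (105 to 130 TPM for 4 markers), 0.52 for the total count, 0.17 for cortical excitatory neurons and 0.06 for the heat shock genes. In P21 midbrain it was −0.89 for mural cells (163 to 230 TPM for 4 markers), −0.73 for midbrain neurons, −0.72 for microglia (186 to 203 TPM for 4 markers), 0.71 for the heat shock genes and −0.60 for hypothalamic neurons. Of the heat shock genes *Hspa1a*, whose reads could be split with its near-identical copy *Hspa1b*, was 7.96 and 7.52 TPM in number 1 of the 2 genotypes and 3.22 to 4.18 TPM in the others. At E18.5 the mean deviation was taken over the 7 genes that passed the filter on low counts. The correlation there was 0.70 for endothelium (123 to 177 TPM), −0.70 for the heat shock genes and 0.67 for mural cells (118 to 168 TPM). It was −0.63 for neurons, 0.61 for oligodendrocytes and 0.59 for the total count. No marker was at 0 in every library of a group. These libraries share their number, and the part of these measures in the differences between numbers was not tested.

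Pairs of the genes were correlated over the libraries of each set as a description. In cortex (n = 8 libraries) all 45 pairs had a positive Pearson's r, with a median of 0.90, and the median r with other genes was 0.00. *Arc* and *Nr4a1* were closest (r = 0.997), *Fos* followed *Egr2* and *Egr1* (both 0.99), and *Fosb* and *Npas4* were least alike (0.50). In P21 midbrain 33 of 45 pairs were positive with a median of 0.52, led by *Junb* with *Arc* (0.98) and *Fos* with *Egr1* (0.96). *Npas4* and *Egr2* stood apart there, with median correlations to the others of 0.03 and −0.10. At E18.5 (n = 12 libraries) the median over 21 pairs was 0.10. *Fos* rose with *Egr1* (0.81), while it ran opposite to *Junb* (−0.78) and *Arc* (−0.74), and *Arc* went with *Dusp1* (0.72).

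Most of this was shared by same-numbered libraries. Once the mean of each number was removed as well, the median r was −0.07 at E18.5, 0.12 in P21 midbrain and 0.30 in cortex. *Arc* and *Nr4a1* in cortex (0.998) and *Junb* and *Arc* in P21 midbrain (0.98) still went together in the hu/hu minus wt/wt differences of the 4 pairs. *Fos* and *Egr1* in cortex (0.98) did so too. Others turned: *Npas4* went from 0.75 to −0.993 with *Nr4a1* and from 0.76 to −0.992 with *Arc* in cortex, and *Egr1* with *Egr4* from 0.78 to −0.90 in P21 midbrain. Of the 45 pairs, 15 were negative in cortex and 17 in P21 midbrain. In cortex the largest difference between hu/hu and wt/wt was in number 3 for *Arc* (76.8 against 137 TPM), *Nr4a1* (66.9 against 106 TPM) and *Npas4* (15.6 against 8.64 TPM). For *Fos* (15.97 against 7.60 TPM) and *Egr1* (145 against 111 TPM) it was in number 1. With 4 pairs, where a single pair can carry a correlation, these values are descriptions only.

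*Fos* was set against each other gene over the 6 pairs at E18.5, as means of the pair and as hu/hu minus wt/wt differences on the log2(TPM + 1) scale, 18 relations in all. For *Egr1* the pair means gave a Pearson's r of 0.95 (exact permutation p = 0.0125, adjusted p = 0.150) and a Spearman's rho of 0.77 (exact permutation p = 0.103, adjusted p = 0.597). For *Arc* they gave −0.95 (exact permutation p = 0.0167, adjusted p = 0.150) and −0.60 (exact permutation p = 0.242, adjusted p = 0.597). Without the 2 pairs farthest from the *Fos* median, numbers 3 and 4, these r values were 0.50 and −0.20, so both relations rest on those pairs. None of the 18 passed an adjusted p under 0.1.

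**Figure D4:**
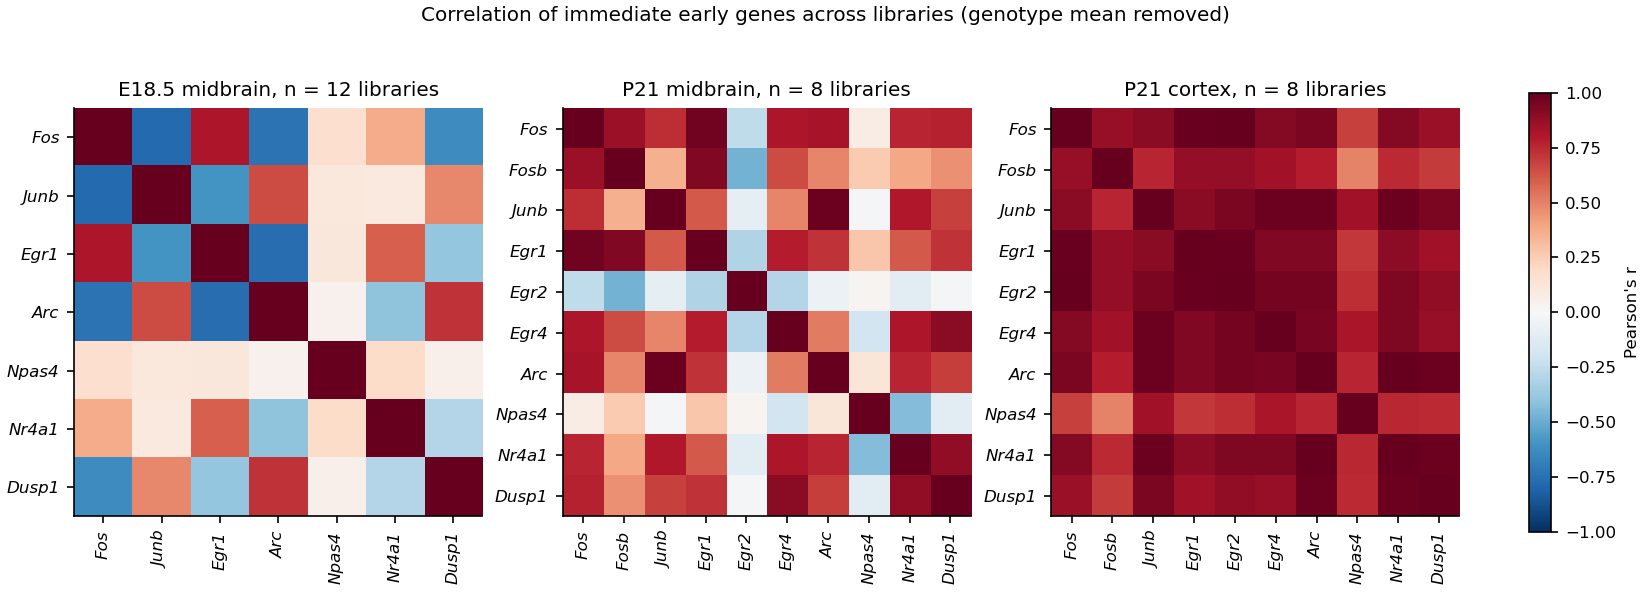
Pearson's r of log2 CPM between the genes over the libraries of each set, from blue (−1) to red (1), with genotype means removed; both axes list the genes. All cortex pairs are positive (0.50 to 0.997), *Npas4* and *Egr2* are pale or blue in P21 midbrain, and E18.5 is mixed (−0.78 to 0.81).

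The genes whose pattern was most like the mean of the 10 were found by Pearson's r over the same libraries. At E18.5 the mean was over the 7 genes that passed the filter on low counts, whose pairs had a median r of 0.10. In cortex they were *Phf15* (r = 0.996 over 8 libraries), *Midn* (0.994), *Gse1* (0.993), *Spry2* (0.989) and *Sall2* (0.986). *Midn* was 40.2, 68.2, 51.9 and 47.7 TPM in hu/hu and 41.4, 72.1, 62.7 and 50.9 TPM in wt/wt, with the same order of numbers as *Arc*. Among the lists, *Srf*, which encodes the CArG box factor, ranked 10th of 15757 genes (r = 0.98), the kinase gene *Plk3* 11th, *Ier5* 13th and *Dusp6* 15th. *Srf* was 37.7, 52.0, 44.7 and 41.4 TPM in hu/hu and 33.8, 51.4, 47.1 and 41.7 TPM in wt/wt. In P21 midbrain the closest were *Atxn3* (0.985), *Atad3a* (0.972), *Zfp101*, *Spry4* and *Zfp874b*, and at E18.5 *Ahdc1* (0.90), *Adra2a*, *Degs2*, *Mmp24* and *Josd1*. Over all 3 sets *Zfp592* had the highest lowest r (0.765), ahead of *Kif21b*, *Irs1*, *Tmem151b* and *Adamts1* (0.711).

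Other immediate early genes differed between numbers in cortex in 13 of 26 cases, against 6.26% of all genes, led by *Per1* (adjusted p = 2.43e-09), *Ier5* (1.29e-06) and *Trib1* (2.31e-06). *Per1* was 66.8, 108, 78.7 and 61.0 TPM in hu/hu and 70.2, 117, 96.1 and 70.9 TPM in wt/wt. In P21 midbrain 3 of 25 did (*Nr4a3*, *Fosl2* and *Gadd45g*), against 2.77% of all genes, and at E18.5 4 of 25, against 40.9%. In cortex 5 of 29 upstream factors and kinases, 6 of 20 effector genes, 3 of 9 phosphatases and 2 of 10 heat shock genes differed between numbers. In P21 midbrain these counts were 3 of 30, 2 of 20, 1 of 9 and 3 of 10, and at E18.5, where 40.9% of all genes were called, they were 17 of 30, 12 of 20, 3 of 8 and 6 of 10. *Egr3*, which was 57.7 to 102 TPM in cortex, was not among the cortex genes called.

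The genotype comparison asked whether the humanised NOVA1 changed these genes. None of the 7 genes tested at E18.5, of the 10 in P21 midbrain or of the 10 in P21 cortex was called, where 0% of the 15540, 15972 and 15767 genes tested were called by edgeR. At an unadjusted p under 0.05 it counted 201, 426 and 450 genes and 0 of the immediate early genes in each set. DESeq2 called 0, 1 and 0 genes, none of them an immediate early gene. The exact permutation tests of mean log2(TPM + 1) gave adjusted p = 1 for all 30 values, and the smallest p they allow is 0.00216 at E18.5 and 0.0286 at P21. They regroup the libraries freely and do not use the pairing by number, so the spread between numbers hides small differences within pairs.

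The intervals of this fit, which leaves the number out, carry the spread between numbers. In E18.5 midbrain the *Nr4a1* estimate was −0.04 (95% interval −0.26 to 0.18) and that of *Dusp1* 0.06 (−0.14 to 0.26) on the log2 scale. The corresponding *Arc* estimate was 0.01 (−0.26 to 0.28) in P21 midbrain but −0.17 (−1.47 to 1.12) in cortex, where leaving out single libraries moved it from −1.24 to 0.58. The estimates farthest from 0 were *Egr2* in P21 midbrain (0.73, −0.23 to 1.70), on 4 to 19 counts per library, and *Npas4* in cortex (0.40, −0.10 to 0.89).

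Since the numbers pair the libraries, the same test was run with the number as a block. It called 0 of the immediate early genes in each set, against 0% of all genes at E18.5 and in cortex and 0.025% (4 genes) in P21 midbrain. The intervals narrowed, except that of *Npas4* in P21 midbrain (−0.17 to 0.42 without the block and −0.19 to 0.42 with it). With the block, the interval of *Arc* in cortex was −0.43 to −0.06 and that of *Nr4a1* −0.41 to −0.14. In cortex those of *Npas4* and *Egr4* were 0.18 to 0.60 and 0.05 to 0.42, and *Arc* in P21 midbrain had −0.12 to 0.17. In cortex the log2 fold change with the block was −0.28 for *Nr4a1*, 0.39 for *Npas4*, 0.24 for *Egr4* and −0.24 for *Arc*, and their unadjusted p in edgeR's test was 0.000384, 0.000953, 0.0156 and 0.0124. They were the 4 of 10 with an unadjusted p under 0.05, against 5.69% (897) of all genes in that fit. At E18.5 and in P21 midbrain 0 of the immediate early genes were under it, against 5.23% and 4.6% of all genes. Their adjusted p was 0.777 to 0.802, so none passed. In hu/hu, *Nr4a1* was lower and *Npas4* and *Egr4* were higher in 4 of 4 pairs, and *Arc* was lower in 2 of 4. No difference of the genotype estimate between regions or between ages was called for any of the 10 genes, with 0% of genes called in both tests. At an unadjusted p under 0.05 these interaction tests counted 373 and 303 genes, again with 0 of the 10, and DESeq2 called 0 genes.

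**Figure D5:**
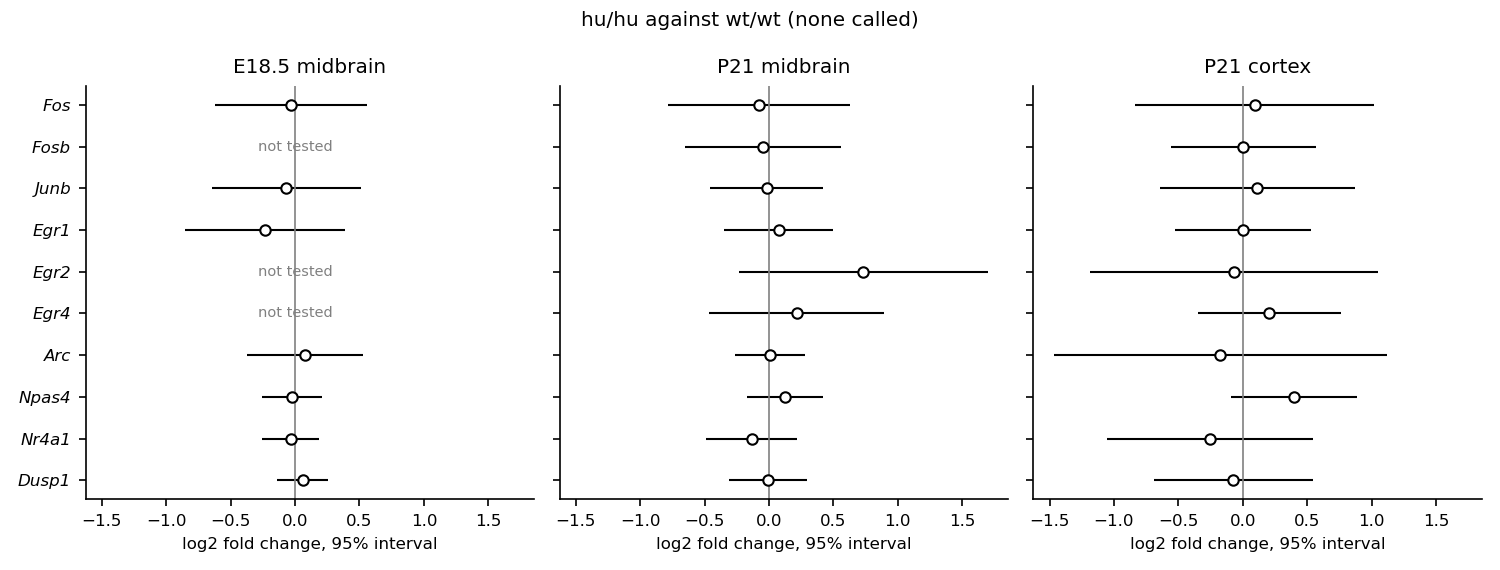
Log2 fold changes of hu/hu against wt/wt with 95% intervals (x axis) for each gene in each age and region (3 panels). Without the number as a block, every interval spans 0, the cortex interval of *Arc* is the widest of those shown there (−1.47 to 1.12), and *Fosb*, *Egr2* and *Egr4* were not tested at E18.5.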

How the data were processed

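Per the labels and the study's methods, RNA was extracted with Trizol from dissected tissue, polyadenylated RNA was made into TruSeq libraries, and paired-end reads were aligned to mm10 with OLego and counted per gene with Quantas. The authors deposited for each library an expected count (not always a whole number) and an RPKM value per gene; the RPKM values follow from counts, exon lengths and totals and were not used further. Counting is not stated to use strand. Samples were grouped by the age, region and genotype in the labels, which number the libraries of each group as replicates and do not tie them to named animals; if libraries shared an animal, p-values would cover only the spread between libraries. Processing notes of the submitters name edgeR and mm10.

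TPM came from unrounded expected counts and exon lengths. For tests the expected counts were rounded and analysed with edgeR 4.0.16 (glmQLFit and glmQLFTest, TMM factors, filterByExpr) in R 4.3.3, two-sided, with Benjamini-Hochberg adjustment over all genes tested; genes were called at p under 0.05 and adjusted p under 0.1. Genotype was a term in the region and age comparisons, and genotype and number in the tests of number. The region and age comparisons take same-numbered libraries of the 2 genotypes as independent, so their intervals and p-values can be too small. Correlations and SDs used log2 CPM with a prior count of 2 and genotype means removed. Single values were also compared with exact permutation tests (scipy 1.17.1). The tests were tested on simulated data with known changes.

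The replicate numbers pair the libraries: deviations of same-numbered libraries from their genotype means correlated at 0.256 to 0.499 at E18.5, 0.266 to 0.300 in P21 midbrain and 0.252 to 0.310 in cortex, with medians for other pairs of −0.096, −0.125 and −0.167. By *Xist*, libraries with the same number shared their sex. The transcriptome data are described as made of male-female pairs in equal numbers.

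All 10 genes are named; from each other list the called genes with the largest change, 3 each way, could be named, and for the differences between numbers those with the smallest p, chosen after their values were seen. The genes and lists were chosen with earlier results of these data known. Alternatives were DESeq2 1.42.0, RLE factors, a stricter filter (10 counts or more per library) or none, the replicate block, a threshold of 0.05 on the adjusted p, other pseudocounts (1 and 0.1) and each library left out. Of the Entrez identifiers, 22959 matched RefSeq on GRCm38.p6, from which positions and promoters come.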

Additional observations from a re-analysis of the deposited data

Results flagged for a closer look

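The levels were screened in 60 sets, each of 1 gene in 1 group of 4 or 6 libraries. These sets are not independent, since the genes share libraries and same-numbered libraries move together. Of the 60 sets, 7 held a library farther from the others than Dixon's 95% critical value allows, where chance gives about 1 in 20 for independent sets. The 3 at E18.5 were *Fos* in hu/hu library 3 (5.02 TPM, the others 1.36 to 2.59), *Egr1* in wt/wt library 3 (8.06 TPM, the others 2.60 to 3.31) and *Npas4* in wt/wt library 4 (6.50 TPM, the others 8.28 to 9.23). In cortex, *Arc* in hu/hu library 2 was at 295 TPM with the others at 34.6 to 76.8. In P21 midbrain, hu/hu library 3 held 5.79 TPM of *Junb* (the others 7.86 to 8.26), hu/hu library 4 held 19.9 TPM of *Nr4a1* (the others 12.3 to 13.3) and wt/wt library 2 held 0.576 TPM of *Egr2* (the others 0.133 to 0.170).

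For *Fos* at E18.5 and *Arc* in cortex, the library with the same number in the other genotype was also the highest of its group. The same held for *Egr1* at E18.5, *Nr4a1* in P21 midbrain and, at the low end, for *Junb* in P21 midbrain and *Npas4* at E18.5. It did not hold for *Egr2* in P21 midbrain, where the hu/hu library of that number (0.420 TPM) lay inside its group.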

How the results depend on the processing

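The count of genes called stayed within 1.5 times in 128 of 128 alternatives that left out a single library. Among the other alternatives, some of which left out both libraries of a number, it did so in 62 of 63. The exception was number at E18.5, with 0 of 7 genes once number 3 was left out, a fit whose share of all genes called is not given here. Leaving out single libraries gave 8 to 9 genes between regions and 9 between ages. Those between ages include *Fosb* and *Egr4*, which entered through their P21 libraries and were left out of the count in the age comparison. The full fits called 75.6% and 85.6% of all genes. Between numbers it gave 2 to 4, 4 to 7 and 10 genes (E18.5, P21 midbrain, cortex), where the full fits called 40.9%, 2.77% and 6.26% of all genes. For genotype and its interactions it gave 0. The replicate block changed no call of a gene between genotypes. It changed none between regions or ages either. There the same number does not mark the same animal, so the block is no check of those calls.

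The median correlation with the replicate block was −0.066 before birth, 0.12 in P21 midbrain and 0.30 in cortex. With genotype means removed but no block, it was 0.24 at E18.5 without number 3. Also without the block, it ran over single left-out libraries from −0.067 to 0.10 at E18.5. The corresponding ranges were 0.48 to 0.66 in P21 midbrain and 0.87 to 0.92 in cortex. The median SD on log2(TPM + 1) was 0.29 before birth and 0.30 in P21 midbrain. On log2 CPM, the scale used above, it was 0.24 at E18.5 without number 3 and 0.54 in cortex without number 2, and over left-out libraries it ran from 0.28 to 0.44, from 0.37 to 0.44 and from 0.63 to 0.77. The cause of these shifts was not tested, beyond the removal of the libraries themselves.

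For single genes no called change turned its direction. Between numbers, *Arc* at E18.5 passed with no filter (adjusted p = 0.0591, edgeR) and *Junb* in P21 midbrain did too (0.00742), while *Junb* at E18.5 reached 0.365 without a single library. Genotype estimates that were not called changed sign in 64 of 421 alternatives and interactions in 73 of 475. Depth limits *Egr4*, *Fosb* and *Egr2* at E18.5, which had at most 4, 11 and 10 counts per library.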
